A study of Mus musculus with 12 samples.

Results

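Aminoacyl-tRNA synthetases, the enzymes that join each amino acid to its transfer RNA, were followed over the day in mouse liver RNA-Seq. The 36 genes were chosen by symbol, as the synthetases of the cytosol and of the mitochondrion, from 20069 genes in the deposited expression table. All 36 symbols had a row, 20 for cytosolic enzymes and 16 for mitochondrial enzymes, whose symbols end in 2. The livers came from adult male C57BL/6 mice, 3 to 6 months old, kept in 12 hr light and 12 hr dark for at least 2 weeks. They were taken every 4 hr from ZT2 to ZT22 (hours after lights on) in 2 independent series, so that each of 6 time points had 2 livers and there were 12 in all. All animals were wild-type and untreated, and whole liver was used. Poly(A) RNA was sequenced, so the values are levels of mature mRNA, and in whole tissue fewer cells of a type cannot be told apart from less RNA per cell.

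Each synthetase recognizes 1 amino acid and the tRNAs that match it, activates the amino acid with ATP and transfers it to the end of the tRNA, which then feeds the ribosome. Cytosolic protein synthesis and mitochondrial protein synthesis use largely separate sets of nuclear-encoded enzymes, although the Gars and Kars genes serve both compartments and Eprs encodes a fused enzyme for glutamate and proline. Phenylalanyl-tRNA synthetase of the cytosol is built from 2 subunits, encoded by Farsa and Farsb. In animals 8 of the 20 cytosolic genes (Dars, Eprs, Iars, Kars, Lars, Mars, Qars and Rars) encode members of a multisynthetase complex, and several genes of the family are known targets of the transcription factor ATF4, which acts when amino acids are scarce or unfolded proteins accumulate.

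The level of an mRNA is given as reads per base pair of exon (rpbp), scaled to 40000000 uniquely mapped sequences in every library. Dividing by exon length adjusts for the length of a gene. All annotated exons counted whatever the isoform, so levels compared between genes also depend on the annotation. A gene was taken as expressed when at least 1 of its 12 values exceeded 8 rpbp, and 10198 genes were. Median-of-ratios size factors over these genes lay between 0.975 and 1.04. The 12 genes of a circadian clock list were all rhythmic by the criteria used below. Summed over 6 hepatocyte markers the level was 90130 and 93030 rpbp in the ZT2 livers and 133800 to 170900 in the other 10. Most of this sum was Alb, which encodes albumin and averaged 51790 rpbp at ZT2 against 96080 to 114500 at the other times. In a limma contrast of ZT2 with the other time points 4 of the 6 were lower (Alb, Ttr, Cyp2e1 and Tat), while Apoa1, an apolipoprotein, was higher by 0.58 on the log2 scale (adjusted p = 0.0326), and Serpina1a had its highest mean at ZT2 without passing (0.34, adjusted p = 0.0831). A list of 9 Kupffer cell markers summed to 971 and 997 rpbp in the ZT2 livers and to 511 to 767 in the others. Of 4 cholangiocyte markers measured 2 were expressed, and both were higher at ZT2 in that limma contrast, Spp1 by 1.10 (adjusted p = 0.0278) and Sox9 by 0.81 (adjusted p = 0.0329). The 4 summed to 129 and 229 rpbp in the ZT2 livers and to 63.7 to 144 in the others. Sox9 had its highest mean at ZT22, 10.1 rpbp against 8.36 at ZT2. At the other times its means were 2.04 to 5.82 rpbp, below the minimum of 8 rpbp. Sums of endothelial, stellate and blood markers in the ZT2 livers lay within the range of the other 10. All markers listed and measured for these cell types were above 0 in at least 1 liver.

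Among the synthetases 33 of 36 mRNAs were expressed, all 20 cytosolic and 13 of 16 mitochondrial. The mRNAs below the minimum were Mars2, Pars2 and Wars2, for the mitochondrial enzymes of methionine, proline and tryptophan, with mean levels of 3.92, 2.58 and 4.86 rpbp. All 12 livers exceeded 8 rpbp for 19 cytosolic and 10 mitochondrial genes. The median level was 33.8 rpbp over the cytosolic genes and 14.96 rpbp over the 13 expressed mitochondrial genes, beside 22.9 rpbp over all expressed genes. Over the expressed members the cytosolic median exceeded the mitochondrial median by 1.14 on the log2(rpbp + 1) scale (SD over 12 livers 0.14, range 0.85 to 1.41), a 2.20-fold difference. That is a description of 20 and 13 genes, without a test, and it became 0.54 with a minimum of 16 rpbp and 1.44 with no minimum.

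**Figure D1:**
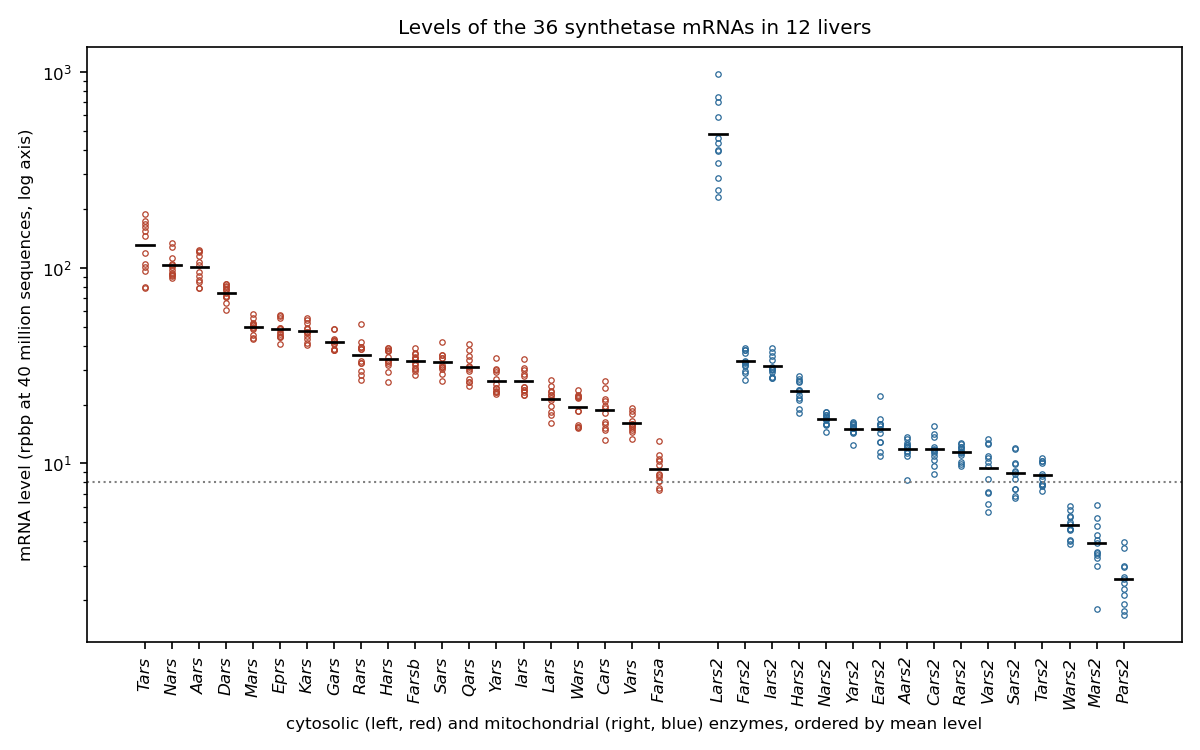
Levels of the 36 synthetase mRNAs, in rpbp on a log axis, with 1 open circle for each of 12 livers and a bar at the mean; cytosolic enzymes stand on the left, mitochondrial on the right, and the dotted line marks the 8 rpbp minimum. Tars has the highest mean of the cytosolic group (131 rpbp) and Farsa the lowest (9.34 rpbp), while Lars2 (484 rpbp) stands apart from all other mitochondrial members.

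Tars, which encodes threonyl-tRNA synthetase (chr15:11313418-11329413, minus strand in mm9), had the highest level of the cytosolic genes, 131 rpbp on average. Nars, for asparagine, followed with 103 rpbp, Aars, for alanine, with 100.3 rpbp and Dars, for aspartate, with 74.5 rpbp. The other 16 cytosolic means lay between 9.34 and 49.9 rpbp. At the low end Farsa, the first subunit of the phenylalanine enzyme, measured 8.72 and 10.3 in the livers of ZT2, 7.52 and 8.16 in those of ZT6, 8.12 and 8.56 of ZT10, 11 and 13.1 of ZT14, 9.84 and 7.28 of ZT18, 8.88 and 10.5 of ZT22 (rpbp, series 1 then 2). Farsb, the other subunit, averaged 33.2 rpbp, and its values of 28.2 to 39 rpbp did not overlap those of Farsa, 7.28 to 13.1 rpbp. The listed levels of the 2 subunits of 1 enzyme thus differed in every liver. Farsa has 4538 annotated exon bases and Farsb 2444, and the part of this in the difference was not tested.

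Lars2, which encodes the mitochondrial leucyl-tRNA synthetase (chr9:123276058-123371782, plus strand), was listed far above the rest of its group with a mean of 484 rpbp. The table holds 1 value a gene and not where in the gene its reads lie, so whether all of this signal is Lars2 mRNA was not tested. Lars2 read 748 and 698 in the livers of ZT2, 230.1 and 587 in those of ZT6, 975 and 393 of ZT10, 435 and 249 of ZT14, 459 and 401 of ZT18, 341 and 287 of ZT22. The extremes of the 12, 230.1 and 975 rpbp, fell in series 1 at adjacent time points, and the livers of 1 time point differed by more than 2-fold at both. Its SD between livers of a time point averaged 31.4% of the level, against a median of 8.62% over the expressed mitochondrial members, 6.52% over the cytosolic members and 8.95% over all expressed genes. Differences of Lars2 among time points did not pass the test against this spread (adjusted p = 0.296, limma with Benjamini-Hochberg adjustment). The other 12 expressed mitochondrial mRNAs averaged between 8.77 rpbp for Tars2 and 33.2 rpbp for Fars2.

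Enzymes of the same amino acid could be set side by side in 17 pairs of a cytosolic and a mitochondrial gene, with each liver giving a ratio of (rpbp + 1). In 12 pairs the cytosolic mRNA had the higher level by this measure in all 12 livers. The mean ratio was 13.01 for Tars to Tars2 (9.11 to 19.1 over livers), 7.79 for Aars to Aars2 and 5.80 for Nars to Nars2. The order was reversed in all 12 livers for 2 pairs, in which Lars stood at 0.0505 of Lars2 and Farsa at 0.300 of Fars2, the former resting on the Lars2 signal as listed. Farsb and Fars2 were nearly equal, with a mean ratio of 1.00 and the cytosolic mRNA higher in 6 livers, and Iars was below Iars2 in 9 of 12. Exons of some members overlap those of another gene on the opposite strand, 22.7% of the annotated exon bases for Iars2 and 10.8% for Farsb, and reads were counted without regard to strand.

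Rhythmic expression was scored by F24, the share of the variance of the 12 values that a 24 hr cosine and sine explain. An mRNA was called rhythmic with F24 above 0.45, a permutation p below 0.05 and an amplitude (highest over lowest value) above 1.5. The criteria called 1948 of 10198 expressed genes, 19.1%. Among the 33 expressed synthetases 3 were called, Tars, Cars and Sars, all 3 cytosolic, and 0 of 13 mitochondrial members were. A permutation p below 0.05 alone was reached by 4 cytosolic and 1 mitochondrial member, beside 26.6% of all. A limma cosinor fit with adjusted p called Tars and no other member. The share of all expressed genes called by that fit lay between 4.81%, the share with an adjusted permutation p, and 19.1%. The median F24 was 0.268 for the cytosolic and 0.205 for the mitochondrial members, beside 0.310 for all expressed genes. The difference between the compartments was not tested, since members of a family are not replicates.

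Tars had the strongest daily rhythm of the family. Its level was 166 and 146 in the livers of ZT2, 101 and 78.8 in those of ZT6, 79.6 and 95.7 of ZT10, 118 and 105 of ZT14, 154 and 174 of ZT18, 187 and 162 of ZT22. The livers of ZT18, ZT22 and ZT2 all exceeded those of ZT6, ZT10 and ZT14. F24 was 0.901 with a fitted peak at ZT21.3 and an amplitude of 2.37 (permutation p = 0.0004, adjusted p = 0.0211 by Benjamini-Hochberg over all expressed genes). Tars was the one member to pass the adjusted threshold, which 4.81% of expressed genes passed, and the one to meet a stricter pair of limits on F24 and amplitude, met by 7.89%. It was called whichever single liver was left out, with F24 from 0.881 to 0.924. Tars2, its mitochondrial counterpart (chr3:95543899-95558900, minus strand), read 10.7 and 10 in the livers of ZT2, 8.6 and 7.64 in those of ZT6, 7.84 and 7.72 of ZT10, 10.3 and 10.3 of ZT14, 7.2 and 8.28 of ZT18, 8.84 and 7.84 of ZT22. Its F24 was 0.0121, and its highest livers were those of ZT2 and ZT14.

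Cars, for cysteine (chr7:150743135-150785995, minus strand), read 26.2 and 24.2 in the livers of ZT2, 15.1 and 18 in those of ZT6, 13.2 and 20.8 of ZT10, 16 and 14.9 of ZT14, 16.4 and 19.6 of ZT18, 19.2 and 21.4 of ZT22. Both ZT2 livers were above the other 10, and the ZT10 livers differed from each other by almost as much as ZT2 did from the rest. F24 was 0.515 with a peak at ZT0.613 and an amplitude of 1.99 (permutation p = 0.0417, adjusted p = 0.173). The call was lost in 9 of 12 omissions of a single liver, those other than series 1 at ZT6 and ZT22 and series 2 at ZT10, with F24 between 0.430 and 0.529 in the 9. Cars2 read 10.4 and 11.2 in the livers of ZT2, 11.7 and 12.1 in those of ZT6, 8.88 and 9.72 of ZT10, 13.7 and 10.9 of ZT14, 11.6 and 15.6 of ZT18, 11.9 and 14.1 of ZT22. It was highest in the second ZT18 liver and not called (F24 0.373, permutation p = 0.129).

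Sars, for serine (chr3:108227783-108248127, minus strand), read 41.9 and 36 in the livers of ZT2, 34.4 and 34.6 in those of ZT6, 26.5 and 31.2 of ZT10, 31.1 and 31.9 of ZT14, 28.5 and 31 of ZT18, 30.4 and 35.9 of ZT22. Both ZT2 livers again exceeded the other 10, the second narrowly. F24 was 0.527, the peak ZT2.12 and the amplitude 1.58 (permutation p = 0.0277, adjusted p = 0.142). The call was lost without the series 1 liver of ZT2 (F24 0.440) or of ZT10 (F24 0.567). Sars2 read 11.8 and 8.88 in the livers of ZT2, 7.4 and 9.92 in those of ZT6, 12 and 7.36 of ZT10, 6.8 and 8.32 of ZT14, 6.64 and 9.04 of ZT18, 9.16 and 10.1 of ZT22. Its livers of 1 time point differed widely and it was not called. Just outside the criteria were Dars, with F24 0.593 and permutation p = 0.0162 but an amplitude of 1.35, Aars2, with permutation p = 0.0388 but F24 0.429, and Vars2, with F24 0.459 and an amplitude of 2.36 but permutation p = 0.0729. Dars, for aspartate, had a fitted peak at ZT8.67 and its highest mean at ZT10.

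**Figure D2:**
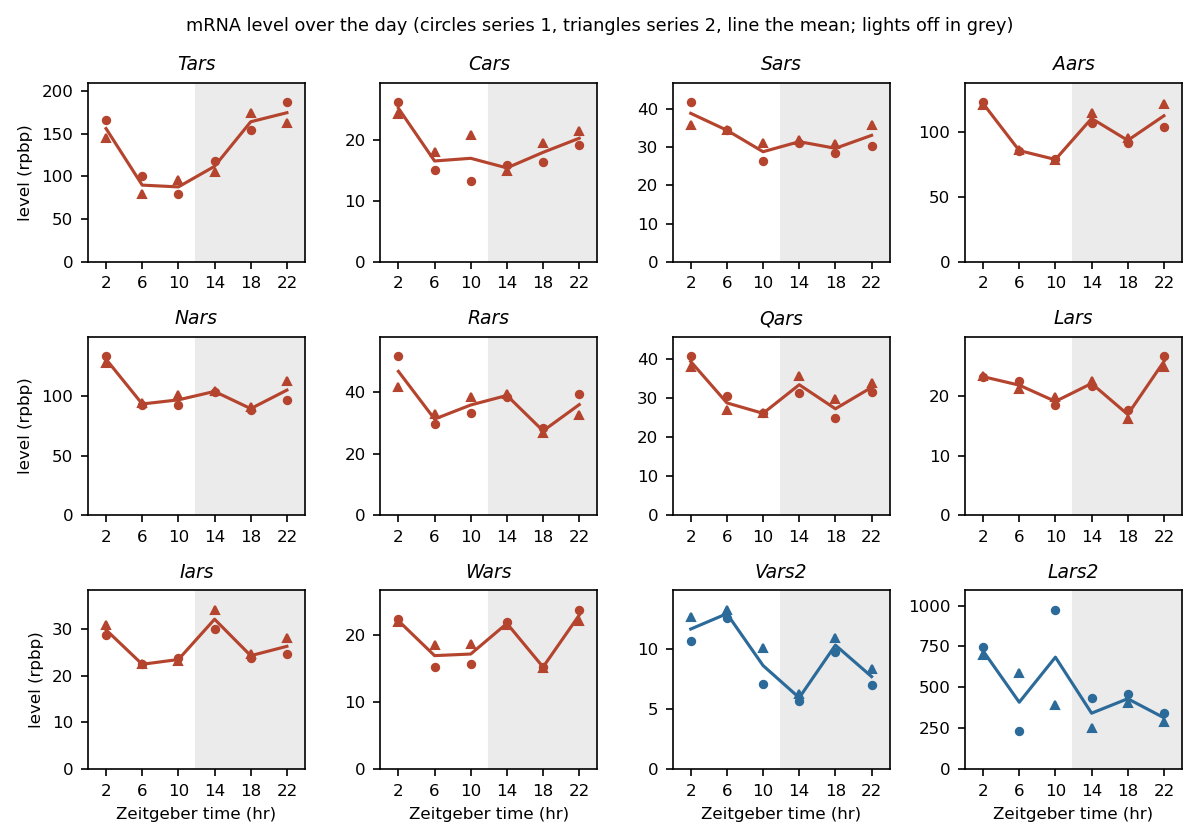
Level in rpbp over Zeitgeber time (hr) for 12 members, with circles for series 1, triangles for series 2, a line through the mean of both and the dark phase in grey; every vertical axis starts at 0. Tars falls from the start of the light phase to ZT10 and climbs through the dark phase, Nars, Rars and Qars have their highest livers at ZT2, and the 2 livers of Lars2 lie far apart at ZT6 and ZT10.

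Any difference among the 6 time points was tested with limma on log2(rpbp + 1), without assuming a shape. This test passed 1792 of 10198 expressed genes, 17.6%, at an adjusted p below 0.05. Among synthetases it passed 7 of 20 cytosolic members, Tars, Aars, Lars, Wars, Nars, Iars and Rars, and 1 of 13 mitochondrial members, Vars2. Qars was just outside with an adjusted p of 0.0503. Genes with a mean of at least 64 rpbp passed in 25.0% of cases, and those between 16 and 32 rpbp in 14.7%. The count of 8 members fell with fewer livers: it was 1 or 2 without a single ZT2 liver or the series 1 liver of ZT6, 3 to 5 without a single liver of ZT14 or ZT18, series 2 of ZT6 or series 1 of ZT10, and 6 or 7 otherwise, while the count over all genes ranged from 724 to 1676. Tars passed in all 12 omissions.

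Aars, for alanine (chr8:113557044-113581564, plus strand), read 123 and 121 in the livers of ZT2, 84.8 and 86.2 in those of ZT6, 78.9 and 78.4 of ZT10, 106 and 114 of ZT14, 91.2 and 95.5 of ZT18, 103 and 121 of ZT22. It was highest at ZT2, ZT14 and ZT22 and lowest at ZT6 and ZT10, and livers of the same time point were close to each other except at ZT22 (adjusted p = 0.0152, limma with Benjamini-Hochberg adjustment). The call was lost without either ZT2 liver (adjusted p = 0.0583 and 0.0535). Aars2 read 12.5 and 12.7 in the livers of ZT2, 13.6 and 11.6 in those of ZT6, 12.1 and 11.2 of ZT10, 8.2 and 11 of ZT14, 12.1 and 12.5 of ZT18, 12.1 and 13.4 of ZT22. Its lowest liver was at ZT14, a time at which Aars was high.

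Nars, for asparagine, read 133 and 128 in the livers of ZT2, 92 and 94.4 in those of ZT6, 92.5 and 101 of ZT10, 103 and 104 of ZT14, 88.2 and 90.3 of ZT18, 96.8 and 113 of ZT22. Both ZT2 livers lay above a range of 88.2 to 113 rpbp in the other 10 (adjusted p = 0.0387, limma). Nars2 read 18.4 and 15.8 in the livers of ZT2, 18.2 and 17.2 in those of ZT6, 16.9 and 17.6 of ZT10, 15.6 and 14.5 of ZT14, 16.8 and 17.8 of ZT18, 16 and 16.7 of ZT22. Its range was the narrowest of all expressed members, with an amplitude of 1.27.

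Rars, for arginine (chr11:35621883-35648008, minus strand), read 51.7 and 41.6 in the livers of ZT2, 29.7 and 32.7 in those of ZT6, 33.2 and 38.3 of ZT10, 38.2 and 39.5 of ZT14, 28.2 and 26.6 of ZT18, 39.2 and 32.6 of ZT22. It was highest at ZT2 and lowest at ZT18 (adjusted p = 0.0454, limma). Rars2 read 11.6 and 12.6 in the livers of ZT2, 9.68 and 10.1 in those of ZT6, 12.7 and 11.3 of ZT10, 12.2 and 11 of ZT14, 9.92 and 11.5 of ZT18, 12.2 and 11.8 of ZT22. Those values had their lowest livers at ZT6 and ZT18.

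Iars, for isoleucine (chr13:49777469-49829636, plus strand), read 28.7 and 30.9 in the livers of ZT2, 22.4 and 22.4 in those of ZT6, 23.7 and 23.2 of ZT10, 30 and 34.1 of ZT14, 23.8 and 24.7 of ZT18, 24.6 and 28 of ZT22. Its livers formed a high set at ZT2 and ZT14 and a low set at ZT6, ZT10 and ZT18, with 1 ZT22 liver in the low range and 1 between (adjusted p = 0.041, limma). Iars2 read 29.2 and 27.4 in the livers of ZT2, 37.1 and 35.6 in those of ZT6, 27.8 and 38.7 of ZT10, 27.3 and 30.5 of ZT14, 30.5 and 30.1 of ZT18, 33.8 and 30.9 of ZT22. That mRNA was lowest on average at ZT2, where Iars was high.

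Wars, for tryptophan (chr12:110098240-110132384, minus strand), read 22.3 and 21.9 in the livers of ZT2, 15.3 and 18.5 in those of ZT6, 15.7 and 18.6 of ZT10, 21.9 and 21.5 of ZT14, 15.3 and 15.1 of ZT18, 23.8 and 22.1 of ZT22. Its 6 livers of ZT2, ZT14 and ZT22 all exceeded the other 6 (adjusted p = 0.0316, limma). Wars2, below the minimum, read 3.88 and 5.32 in the livers of ZT2, 4.56 and 6.08 in those of ZT6, 4.64 and 5.8 of ZT10, 5.36 and 4 of ZT14, 4.92 and 4.6 of ZT18, 5.04 and 4.08 of ZT22.

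Lars, for leucine, read 23.1 and 23.3 in the livers of ZT2, 22.4 and 21.2 in those of ZT6, 18.4 and 19.7 of ZT10, 21.6 and 22.5 of ZT14, 17.6 and 16.1 of ZT18, 26.7 and 24.8 of ZT22. Both ZT22 livers were the highest and both ZT18 livers were the lowest of the 12 (adjusted p = 0.0231, limma). Leaving out single livers ended the call for Nars, Iars and Rars in 10 of 12 cases each, the exceptions being the ZT22 livers (adjusted p up to 0.172, 0.105 and 0.129, limma). For Wars it did so in 9, all but both ZT10 livers and the second of ZT6 (up to 0.0855), and for Lars in 6, each liver of ZT2 and ZT6, the first of ZT22 and the second of ZT18 (up to 0.0667). With median-of-ratios size factors 6 members passed, without Nars and Iars (adjusted p 0.0528 and 0.0659, limma), and with the replicate number as a block 6 passed, without Nars and Rars (0.0528 and 0.0699).

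A recurring shape in these values was a high level at ZT2 with a smaller rise at ZT14. The contrast of ZT2 with the mean of the other 5 time points was chosen after this had been seen. By limma it was higher at ZT2, at an adjusted p below 0.05, for 981 of 10198 genes, 9.62%, and lower for 998, 9.79%. Among the cytosolic synthetases 8 of 20 were higher, Cars, Rars, Nars, Qars, Aars, Yars, Eprs and Gars, and 0 were lower. Among the 13 mitochondrial members 1 was higher, Tars2, and 0 were lower. The count of 9 was 0 without the series 1 liver of ZT2 and 1 without the series 2 liver, when 392 and 511 genes of all were called. Over all 12 omissions of a single liver the call was lost in 10 for Gars and for Tars2, in 8 for Cars and for Eprs, in 5 for Yars, in 2 for Aars, Nars and Qars, both of ZT2, and in 1 for Rars, the first of ZT2.

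The largest of these differences was that of Cars, 0.52 on the log2 scale (SE 0.15, adjusted p = 0.0412, limma). Rars was higher at ZT2 by 0.46 (SE 0.11, adjusted p = 0.0204), and Nars by 0.42 (SE 0.08, adjusted p = 0.00823), in the same limma fit. Qars, for glutamine (chr9:108410336-108418272, plus strand), read 40.7 and 37.8 in the livers of ZT2, 30.5 and 26.8 in those of ZT6, 26 and 26 of ZT10, 31.2 and 35.4 of ZT14, 24.8 and 29.6 of ZT18, 31.4 and 33.8 of ZT22. Its difference was 0.41 (adjusted p = 0.0193, limma), and both ZT2 livers were above all others.

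The remaining 4 cytosolic calls differed less. They were Aars with 0.35, Yars, for tyrosine, with 0.34, Eprs with 0.28 and Gars, for glycine, with 0.26 on the log2 scale (adjusted p 0.016, 0.0324, 0.0395 and 0.0483, limma). All 20 cytosolic members had a positive difference, with a median of 0.26 and a lowest of 0.05 for Farsa, and all 20 stayed positive when libraries were rescaled by median-of-ratios size factors (median 0.22, lowest 0.01). Of the mitochondrial members 11 of 13 were positive with a median of 0.08, or 9 of 13 with a median of 0.04 after rescaling. Over all expressed genes 56.6% were positive before rescaling, and the median was 0.04, or 0.01 after rescaling. Rescaling left 6 cytosolic calls, without Eprs and Gars, and 0 mitochondrial, and changed the split over all genes from 981 higher and 998 lower to 786 and 1192.

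Both ZT2 livers were above the other 10 for 8 of 20 cytosolic and 0 of 13 mitochondrial members, beside 10.4% of expressed genes. ZT2 had the highest mean for 14 of 20 cytosolic and 4 of 13 mitochondrial members, beside 29.2% of all. The ZT14 mean exceeded those of both neighbouring time points for 16 of 20 cytosolic and 3 of 13 mitochondrial members, beside 34.7% of all genes. The lower sums of hepatocyte markers, with Apoa1 going the other way, and the higher sums of Kupffer cell markers given above fell at the same ZT2 livers. Spp1 and Sox9 were higher there too, while the sum of the cholangiocyte list exceeded all other livers only in the second ZT2 liver. Of the 9 Kupffer genes 8 were expressed and tested, and 6 were themselves higher at ZT2. Their part in the synthetase values was not tested.

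**Figure D3:**
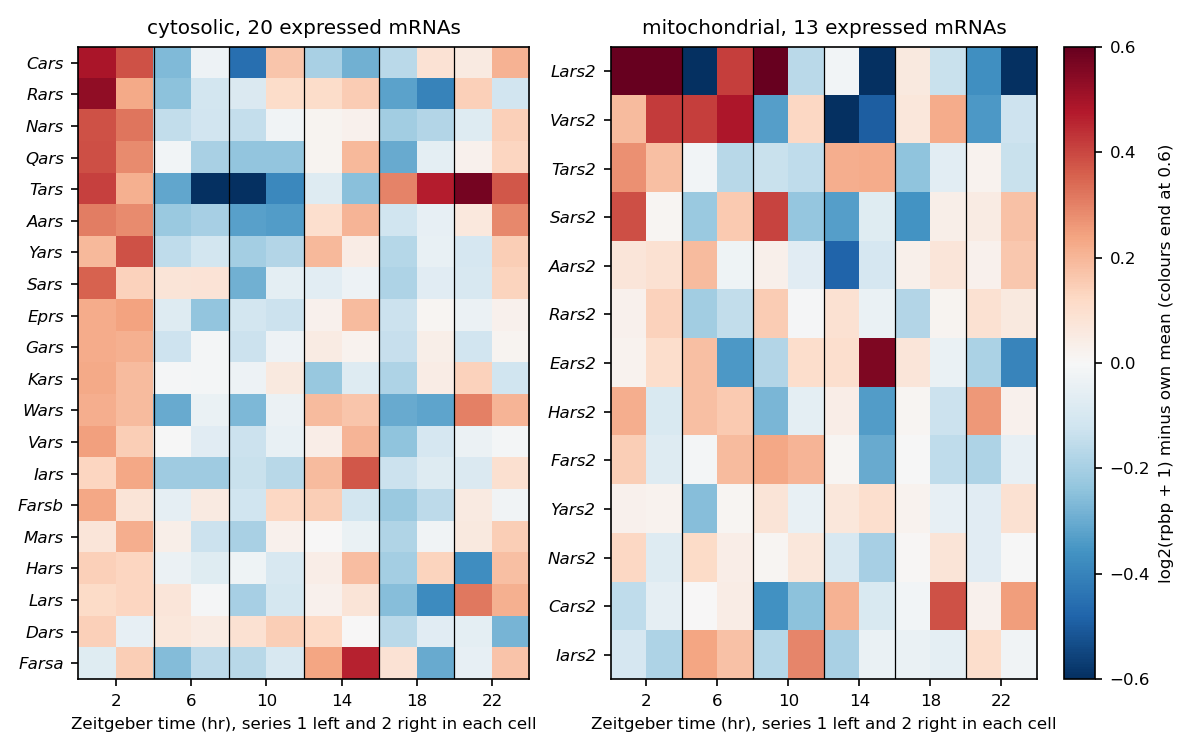
Deviation of log2(rpbp + 1) from the gene's own mean in each liver, red above and blue below, for the 20 cytosolic and 13 mitochondrial mRNAs expressed; columns run over Zeitgeber time (hr) with series 1 left and series 2 right, and rows are ordered by the ZT2 deviation. Red at ZT2 fills most cytosolic rows, most cells of ZT6, ZT10 and ZT18 are blue, and among the mitochondrial rows the first ZT2 liver is above the mean in 11 of 13 and the second ZT14 liver in 3 of 13.

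**Figure D4:**
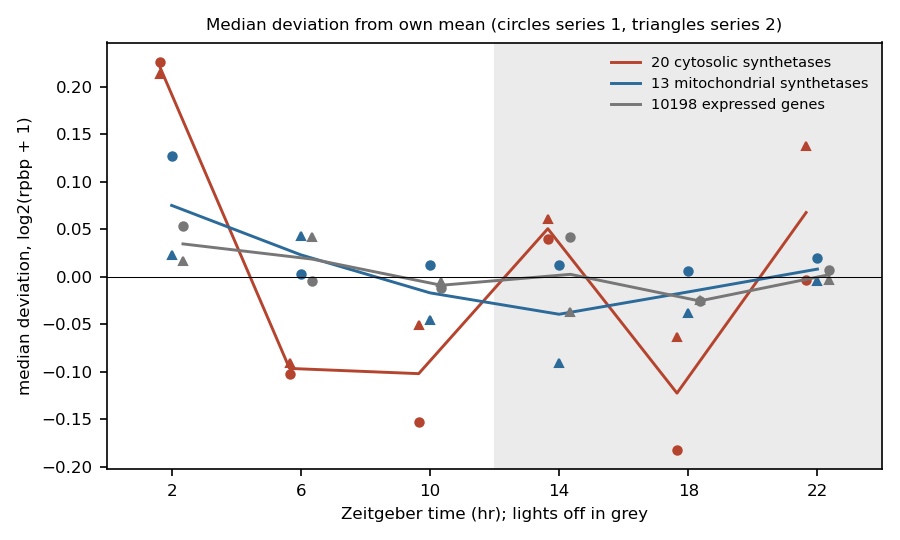
Median deviation from the gene's own mean, log2(rpbp + 1), in each liver over Zeitgeber time (hr), for 20 cytosolic synthetases, 13 mitochondrial synthetases and 10198 expressed genes; circles are series 1, triangles series 2, lines the mean of both, and the dark phase is grey. The cytosolic median is 0.23 and 0.21 at ZT2, when all genes are at 0.05 and 0.02, and it falls below 0 in all livers of ZT6, ZT10 and ZT18.

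Liver by liver, the median deviation of the cytosolic members from their own means was 0.23 and 0.21 at ZT2 and −0.10 and −0.09 at ZT6. It was −0.15 and −0.05 at ZT10, and 0.04 and 0.06 at ZT14, on the same log2(rpbp + 1) scale. The ZT18 livers gave −0.18 and −0.06, those of ZT22 −0.003 and 0.14. The 2 series thus had the same sign at 5 of 6 time points. The mitochondrial median stayed between −0.09 and 0.13 and the median of all expressed genes between −0.04 and 0.05. At ZT2, 19 of 20 cytosolic members were above their own mean in each liver, and 11 and 8 of 13 mitochondrial members were.

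By membership of the multisynthetase complex, the time-point test passed 3 of the 8 complex members (Iars, Lars and Rars) and 4 of the 12 others, beside 17.6% of all expressed genes, and the ZT2 contrast passed 3 of 8 (Eprs, Qars and Rars) and 5 of 12, all higher, beside 9.62%. By structural class, the time-point test passed 4 of 9 class I and 3 of 10 class II enzymes, beside the same 17.6%, Eprs being a fusion of both.

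The shape with 2 rises was measured by F12, the share of variance in a 12 hr component, also chosen after the values had been seen. With 2 livers at 4 hr intervals a 12 hr component rests on 3 points a cycle. Without adjustment, 11.5% of expressed genes had a permutation p below 0.05. Among cytosolic members 9 of 20 did, Iars, Vars, Eprs, Rars, Yars, Wars, Nars, Qars and Gars, and among mitochondrial members 2 of 13, Tars2 and Rars2. None of the 10198 genes passed an adjusted permutation p of 0.05, and a limma fit of a 12 hr cosine and sine passed 8 genes, 0.0784%, with 0 synthetases.

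F12 was 0.792 for Iars (permutation p = 0.0028), 0.729 for Vars, which encodes the valine enzyme (p = 0.0035), 0.715 for Eprs (p = 0.0084) and 0.685 for Rars (p = 0.0016). It was 0.865 for Tars2 (permutation p = 0.0052), the highest of the family. The median F12 was 0.477 over cytosolic and 0.276 over mitochondrial members, beside 0.202 over all expressed genes, and F12 exceeded F24 in 13 of 20 and 6 of 13, beside 39.4% of all. The first peak of the fitted 12 hr wave lay between 0.12 and 2.50 hr after lights on for all 20 cytosolic members, and in that part of the cycle, 0 to 3 hr, for 4 of 13 mitochondrial members and 37.1% of all genes. That window, like F12, was set after the values had been seen. A 12 hr wave puts ZT2 and ZT14 at the same point of its cycle, so this count is not separate from the ZT2 differences. It includes members with little 12 hr component, such as Kars (F12 0.0576) and Dars (0.0913). Tars stood apart from the other cytosolic members, with F12 0.00615 beside its F24 of 0.901.

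**Figure D5:**
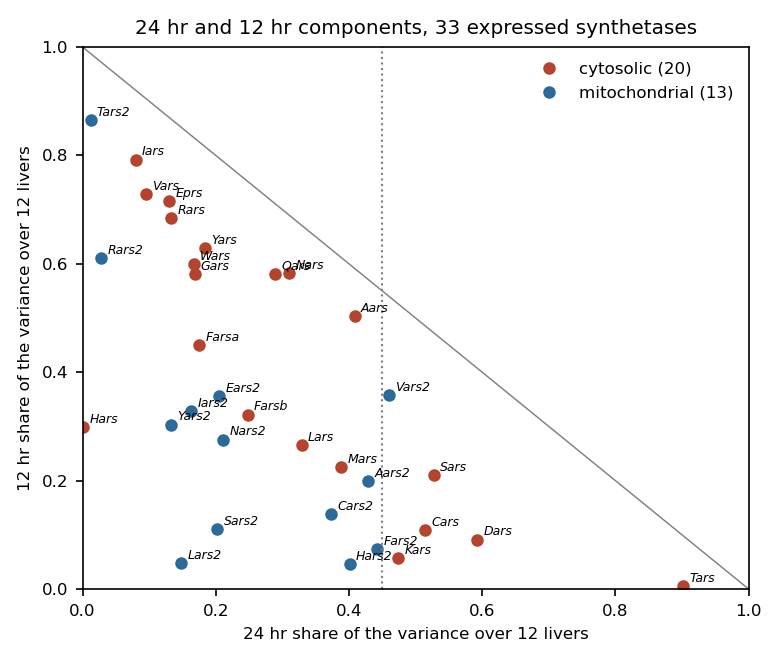
Share of the variance over 12 livers in a 24 hr component (horizontal) and in a 12 hr component (vertical) for each expressed synthetase, red for cytosolic and blue for mitochondrial; the diagonal is where both add up to 1 and the dotted line is F24 of 0.45. Tars sits at the lower right (0.901 and 0.00615), while Iars, Vars, Eprs and Rars with Tars2 and Rars2 lie at the upper left.

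Vars2, for the mitochondrial valine enzyme (chr17:35792579-35804537, minus strand), was the member of its compartment that differed among time points (adjusted p = 0.02, limma). It read 10.6 and 12.7 in the livers of ZT2, 12.6 and 13.3 in those of ZT6, 7.12 and 10.1 of ZT10, 5.64 and 6.24 of ZT14, 9.72 and 10.9 of ZT18, 7.04 and 8.36 of ZT22. Both ZT14 livers were the lowest of the 12, and both ZT6 livers with the second of ZT2 were the highest. Vars, its cytosolic counterpart (chr17:35137932-35153267, plus strand), read 19.1 and 17.8 in the livers of ZT2, 16 and 15.2 in those of ZT6, 14.5 and 15.5 of ZT10, 16.5 and 18.6 of ZT14, 13.4 and 14.8 of ZT18, 15.6 and 15.8 of ZT22. Both ZT14 livers of Vars lay above its mean of 16.1 rpbp. The call of Vars2 was lost without a single liver of ZT6 or ZT14 or the second of ZT2 (adjusted p 0.0519 to 0.0628).

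Dark (ZT14, ZT18 and ZT22) and light (ZT2, ZT6 and ZT10) were compared over 6 livers each. This contrast passed 5.05% of expressed genes, 2.84% higher and 2.21% lower in the dark. It passed 1 cytosolic member, Tars, higher in the dark by 0.46 on the log2 scale (SE 0.09, adjusted p = 0.0278, limma), and 1 mitochondrial member, Vars2, which fell by 0.43 (SE 0.09, adjusted p = 0.0375). For neither did the light and dark livers separate fully, since Tars at ZT2 exceeded Tars at ZT14 and Vars2 at ZT10 overlapped its dark values. Each of these calls depended on single livers, since the count of 2 was 0 or 1 whichever one was left out. Over the 12 omissions the difference of Tars stayed between 0.40 and 0.52 and that of Vars2 between −0.51 and −0.36. With all 12 livers the median difference was −0.01 over cytosolic and −0.08 over mitochondrial members, beside −0.02 over all expressed genes.

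The bases before the start of transcription are shown for the 5 members whose promoter held the core of the C/EBP-ATF response element, TGATGNAA, through which ATF4 acts on amino acid genes, together with Tars2, which held none. RefSeq promoters on build GRCm38.p6 were used for 27 of 36 members, 13 cytosolic and 14 mitochondrial, as 250 bases before to 50 after the start. Within them the core, on either strand, was found for 5 of 13 cytosolic members and 0 of 14 mitochondrial members, beside 4.06% of 27025 promoters of the same length. The E-box CACGTG, bound by the clock factors CLOCK and BMAL1 among others, was found for 4 cytosolic members, Aars, Farsb, Iars and Tars, and 1 mitochondrial, Ears2, beside 7.24% of all. The D-box core TTANGTAA was found in 0 members (2.34% of all), and the RORE core AGGTCA in Eprs and Fars2 (16.04% of all). No 2 of these matches overlapped in a member. Printed from 150 bases before to 30 after the start, 5′ to 3′ on the strand of the gene, with the response element core and the E-box in capitals, the sequences were:
Tars (GRCm38.p6, chr15:11399629-11399808, minus strand): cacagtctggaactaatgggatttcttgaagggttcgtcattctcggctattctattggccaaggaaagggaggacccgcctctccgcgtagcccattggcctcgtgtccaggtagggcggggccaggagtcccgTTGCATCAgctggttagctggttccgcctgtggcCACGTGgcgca
Aars (GRCm38.p6, chr8:111033692-111033871, plus strand): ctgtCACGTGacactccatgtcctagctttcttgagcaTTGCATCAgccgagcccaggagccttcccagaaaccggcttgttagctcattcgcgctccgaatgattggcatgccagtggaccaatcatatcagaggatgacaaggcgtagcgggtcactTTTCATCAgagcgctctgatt
Iars (GRCm38.p6, chr13:49681980-49682159, plus strand): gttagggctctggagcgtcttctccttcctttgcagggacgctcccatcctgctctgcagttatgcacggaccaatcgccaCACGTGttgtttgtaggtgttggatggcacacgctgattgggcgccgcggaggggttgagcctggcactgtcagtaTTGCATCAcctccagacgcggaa
Gars (GRCm38.p6, chr6:55037851-55038030, plus strand): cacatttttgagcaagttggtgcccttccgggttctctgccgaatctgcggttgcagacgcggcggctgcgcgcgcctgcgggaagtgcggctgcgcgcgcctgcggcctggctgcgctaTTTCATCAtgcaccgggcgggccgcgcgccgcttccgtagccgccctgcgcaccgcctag
Yars (GRCm38.p6, chr4:129189753-129189932, plus strand): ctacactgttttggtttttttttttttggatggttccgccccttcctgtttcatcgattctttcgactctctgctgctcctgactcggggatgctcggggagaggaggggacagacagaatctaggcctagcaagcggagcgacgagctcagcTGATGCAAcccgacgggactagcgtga
Tars2 (GRCm38.p6, chr3:95754948-95755127, minus strand): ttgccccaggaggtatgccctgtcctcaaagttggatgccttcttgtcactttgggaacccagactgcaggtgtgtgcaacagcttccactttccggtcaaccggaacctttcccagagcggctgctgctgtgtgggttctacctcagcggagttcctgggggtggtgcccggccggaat

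Counted from 1 at the start, with the base before it as −1, the core began at −15 in Tars and the E-box at 20. The Aars window held the core 2 times, at −112 and 10, with an E-box at −146. In Iars the core began at 8 and the E-box at −69, in Gars the core began at −30, and in Yars at 4. All 5 genes were among those named above, Tars, Aars and Iars in the time-point test and Aars, Gars and Yars in the ZT2 contrast. At least 1 of these tests called 7 of the 13 cytosolic members with a promoter here and 12 of all 20. Over all expressed genes the time-point test passed 17.6%, and 9.62% were higher in the ZT2 contrast. The share called by at least 1 of them was not counted, and a link between matches and calls was not tested. A match is a description of the letters and not evidence of binding.

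Other genes of tRNA charging and of the amino acid response were taken from lists. In the amino acid response list 19 of 32 genes in the table were expressed, of which 6 were rhythmic, beside 19.1% of all expressed genes. With the adjusted permutation p 1 of them was called, Atf5, beside 4.81% of all. Higher at ZT2 were 2 of the 19 and lower were 3, beside 9.62% and 9.79% of all expressed genes. Of the 19, 8 were positive, beside 56.6% of all expressed genes, with a median difference of −0.09 on the log2 scale. Atf4 was rhythmic with F24 0.66, a peak at ZT23.4 and levels of 110.3 to 217 rpbp (permutation p = 0.0073), and was higher at ZT2 by 0.54 on the log2 scale (adjusted p = 0.00779, limma). Atf5, a related factor, had F24 0.704 with a peak at ZT22.4 and levels of 175 to 576 rpbp (permutation p = 0.0011). Both fitted peaks fell after that of Tars and before lights on, but livers were taken every 4 hr and this order was not tested. By time-point means Tars and Atf5 were highest at ZT22, with 175 and 566 rpbp, and Atf4 at ZT2, with 206 rpbp. Ppp1r15b, a phosphatase subunit, peaked at ZT11.8 (F24 0.667), and Cth, a cysteine-forming enzyme, at ZT16.2 (F24 0.56). At ZT2 both were lower, with differences of −0.33 and −0.60, as was Gpt2, an alanine transaminase, with −1.03 (adjusted p 0.0428, 0.00207 and 0.032, limma). The list thus held rhythmic genes with peaks in opposite parts of the day.

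Of the 3 scaffold genes of the multisynthetase complex, all expressed, 0 were rhythmic by the permutation criteria, beside 19.1% of all expressed genes. A permutation p below 0.05 was reached by 0 of them, beside 26.6% of all. Scye1, an older symbol of Aimp1, differed among time points (adjusted p = 0.0346, limma) and was higher at ZT2 by 0.30 on the log2 scale (adjusted p = 0.023, limma). Among 8 cytosolic translation factors 0 were rhythmic, likewise 0 by permutation p alone. Beside 17.6% of all expressed genes, 1 of the 8 differed among time points, Gspt1, a termination factor (adjusted p = 0.0293, limma). Among 11 expressed mitochondrial translation factors 1 was rhythmic, beside the same 19.1%. It was Tsfm, an elongation factor, with F24 0.701 and a peak at ZT9.91 (permutation p = 0.0032, adjusted p = 0.0529).

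Of 33 expressed genes of tRNA transcription and maturation 9 were rhythmic, beside 19.1% of all, with peaks spread over the day. With the adjusted permutation p 0 of the 33 were called, beside 4.81% of all. Rpp21, of RNase P, peaked at ZT14.8 (F24 0.696), Elac1, a tRNA 3′ processing enzyme, at ZT2.35 (F24 0.69), Gtf3c1, of the factor TFIIIC, at ZT21.6 (F24 0.685) and Pop4, of RNase P, at ZT5.14 (F24 0.653). In a list of 8 genes of tRNA quality control and selenocysteine 0 were rhythmic, with 1 at a permutation p below 0.05, beside 26.6% of all.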

How the data were processed

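Liver poly(A) RNA of 12 mice was made into TruSeq libraries and sequenced. Per the submitters' processing notes the tools were CASAVA 1.8 and TopHat, and the build was mm9; the aligner's version is not given in the sources used here. The authors counted uniquely mapped sequences over exons of UCSC genes, ignoring strand, and deposited the mean exon signal (coverage) of each gene, reads per base pair scaled to 10000000 uniquely mapped sequences, in 1 table of 20069 genes. Headers that say ZT20 were read as ZT22, the time the labels give. Further deposited columns of the authors' own rhythm statistics (score, phase and p-value) were not used.

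The signal was multiplied by 4 to refer to 40000000 sequences. Genes with at least 1 of 12 values above 8 rpbp were tested. F24 and F12 were least-squares shares with 10000 permutations of the 12 values (seed 1, smallest p 0.0001) in Python 3.11.15. Time-point, dark and ZT2 contrasts were fitted with limma 3.58.1 (R 4.3.3) on log2(rpbp + 1) over all samples and all 10198 expressed genes, with Benjamini-Hochberg adjustment. Only the permutation tests of the daily rhythm and of the 12 hr component and the ZT2 contrast were tried on simulated data. No result of that trial is given here. The table holds coverage and not counts, so no counting intervals are given, the library depths listed by the study were not used here, and precision is read from the spread between livers. Livers came from separate series. The limma p-values of the time-point, dark and ZT2 contrasts rest on the spread between livers of a time point, moderated over all tested genes. Permutation p-values compare the 12 values with reorderings of the same values.

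The members, lists and motifs were chosen with earlier results of these data known. All 12 values are given for members called by any of the 3 tests, their counterparts in the other compartment, and the highest and lowest expressed member of each compartment. From each list the called members with the highest F24 are named, up to 4. Qars and the members of the ZT2 and 12 hr comparisons were named after their values were seen. The replicate numbers were not taken as pairs, because series 1 minus series 2 differences correlated across time points by −0.15 to 0.21 (median −0.03, 15 pairs of time points, 2 above 0.1). Alternatives were size factors, other minimums, a pseudocount of 0.1, F24 on log values, a replicate block and the omission of livers. Positions are from GENCODE vM1 on NCBIM37 (mm9), promoters from RefSeq on GRCm38.p6. Promoter sequence was not used for Cars, Hars, Lars, Nars, Rars, Vars, Wars, Hars2 and Pars2. Of these Hars, Lars, Nars and Hars2 were left out for their chromosome, which the share over all promoters includes. In the RefSeq synonyms Hars2 and Vars2 are also older names of other genes (Dtd1 and Vars), each of which has a row of its own here.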

Additional observations from a re-analysis of the deposited data

How the results depend on the processing

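The count of rhythmic synthetases, 3, was 1 with an adjusted permutation p, 1 with a limma cosinor fit, 6 without both ZT14 livers, 6 without both ZT18 livers and 1 without both ZT2 livers, and 0 to 4 when 1 liver or 1 series was left out. Tars was called in all of these except without series 1 (F24 0.893, permutation p = 0.1). The count differing among time points, 8, was 4 with no expression minimum, and 1, 4, 4 and 5 without both livers of ZT2, ZT6, ZT14 and ZT18, and 1 to 7 without 1 liver; leaving out a whole series leaves no residual degrees of freedom, so that test was not run. The dark against light count, 2, was 1 with a minimum of 16 rpbp, 0 with no minimum, 0 without both livers of ZT6 or of ZT22, 1 without those of ZT10, ZT14 or ZT18, and 0 to 1 without 1 liver or series. For ZT2 against the rest the count of 9 was 4 with no minimum, 4 without both ZT6 livers, 5 without both ZT10 livers and 0 to 9 without 1 liver. The 12 hr count of 11 was 0 with adjustment, 0 with limma, 7 without both ZT6 livers and 0 to 13 without 1 liver or series, 0 being the series. The cytosolic minus mitochondrial level, 1.14, was 0.54 with a minimum of 16 rpbp, 1.44 with no minimum, 0.87 with the mean in place of the median and 1.10 to 1.16 without 1 series. A fit with the replicate number as a block, although the numbers were not shown to be pairs, gave 3 rhythmic, 6 among time points, 2 dark against light, 8 at ZT2 and 11 in the 12 hr test. No called member changed direction under any alternative run. The cause of these changes was not tested. Most time-point calls ended with 1 liver fewer.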

Other observations

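Lars2 varied more between livers of 1 time point than the rest of the family, and 1 other row of the table, AK144265, was chosen after the values were seen because it followed Lars2 most closely of 11335 rows compared. AK144265 read 25.5 rpbp in the series 1 liver of ZT6 and 111 rpbp in the series 1 liver of ZT10, the livers in which Lars2 was lowest and highest. Its other livers read 26.2 to 84.8 rpbp.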
